A study of Rattus norvegicus with 6 samples.

Results

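The genes examined here code for the subunits of the proteasome. They were chosen by symbol from the deposited count table as Psma, Psmb, Psmc or Psmd followed by a number, leaving out the immunoproteasome subunits Psmb8, Psmb9 and Psmb10. This gave 32 genes out of 30498 rows: 14 of the core particle (7 of the alpha ring and 7 of the beta ring), 17 of the regulatory particle (6 base ATPases, 3 other base subunits and 8 lid subunits) and Psmd5, a chaperone that helps to assemble the base and leaves before the particle is complete. Psma3, Psmb11, Psmd9 and Psmd10 had no row under these symbols and were not analysed here. The alpha ring and core particle are thus counted and summed without Psma3. RNA sequencing was done on rat mesenchymal stem cells (MSC), stromal cells that can form bone, cartilage and fat, in 6 libraries. The 3 rcMSC libraries are labelled as wild-type (WT) cells of cranial bone marrow, and the 3 rbMSC libraries as WT cells of the marrow of long bones ("ferms and tibias"). The labels do not name strain, age, passage or treatment, and the comparison of rcMSC with rbMSC is the one that the design text names.

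The proteasome degrades proteins that have been tagged with chains of ubiquitin. Its core particle is a barrel of stacked rings, in which the outer alpha rings form the gate and the inner beta rings hold the protease sites in Psmb5, Psmb6 and Psmb7. The regulatory particle caps the barrel: the lid and the base bind the tagged protein and remove its ubiquitin, and a ring of ATPases, Psmc1 to Psmc6, unfolds the protein and feeds it into the core. Nfe2l1, a transcription factor that binds antioxidant response elements, raises proteasome genes when proteasome activity falls.

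Of the 32 members, 28 had a promoter entry in RefSeq (build GRCr8, which differs from the mRatBN7.2 build of the counts), and Psma7, Psmd6, Psmd12 and Psmd14 had none. The sequences below are the 250 bases upstream of the start site of the 3 genes with a protease site and of Psma4, the member with the largest change. They are written 5′ to 3′ on the strand of the gene, and capitals mark TGACNNNGC, the core letters of an antioxidant response element, and CCAAT or its reverse ATTGG. Psmb5 lies at chr15:32047380-32047629 (minus strand), Psmb6 at chr10:55737638-55737887 (plus strand), Psmb7 at chr3:42827471-42827720 (minus strand) and Psma4 at chr8:64236270-64236519 (plus strand).
Psmb5: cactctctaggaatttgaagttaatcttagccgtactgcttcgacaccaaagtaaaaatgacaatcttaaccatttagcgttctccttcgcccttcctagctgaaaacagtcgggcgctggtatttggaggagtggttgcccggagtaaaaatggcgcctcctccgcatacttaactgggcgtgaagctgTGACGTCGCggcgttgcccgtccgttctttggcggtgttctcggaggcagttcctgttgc
Psmb6: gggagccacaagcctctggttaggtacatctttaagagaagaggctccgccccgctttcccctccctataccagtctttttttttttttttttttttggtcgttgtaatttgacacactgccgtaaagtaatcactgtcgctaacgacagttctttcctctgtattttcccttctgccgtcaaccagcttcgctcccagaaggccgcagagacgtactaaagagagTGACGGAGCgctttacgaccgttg
Psmb7: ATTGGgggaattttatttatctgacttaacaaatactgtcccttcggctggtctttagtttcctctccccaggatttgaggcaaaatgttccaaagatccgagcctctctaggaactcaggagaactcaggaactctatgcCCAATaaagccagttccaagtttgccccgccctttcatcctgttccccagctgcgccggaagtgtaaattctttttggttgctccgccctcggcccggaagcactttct
Psma4: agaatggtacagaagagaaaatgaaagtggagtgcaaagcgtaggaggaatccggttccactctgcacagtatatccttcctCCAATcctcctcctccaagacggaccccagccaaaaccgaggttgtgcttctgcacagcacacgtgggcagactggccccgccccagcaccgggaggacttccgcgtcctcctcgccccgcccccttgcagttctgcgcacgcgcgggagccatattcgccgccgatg

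Searched on both strands, TGACNNNGC was in 4 of the 28 member promoters (14.3%), against 10.2% of the 27457 promoters in the RefSeq table. The 4 were Psmb2, Psmb5, Psmb6 and Psmd1, each with 1 match on the strand of the gene. In Psmb5 the letters were TGACGTCGC, from 60 to 52 bases upstream of the start site, and in Psmb6 TGACGGAGC, from 24 to 16 bases upstream. CCAAT was in 13 of the 28 (46.4%, against 34.3% of all promoters), 8 of them in core particle genes, and Psmb7 and Psma4 were among these. TATAAA was in 4 (14.3%, against 13.1%). TGACTCAGC, a single spelling of TGACNNNGC, was in 0 of the 28, against 0.375% of all promoters. The promoters were rich in G and C, with a median of 55% (45.2% to 63.6%), against 52% in all promoters, and held a median of 14.5 CG pairs, against 6. A match of letters describes the sequence and is not a binding site.

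Total counts ranged from 21340290 to 26928079 per library. Whether replicate libraries stem from different rats or cultures is not in the labels. The p-values thus measure only the spread between these 6 libraries, and that spread may be technical. Within rcMSC, replicate 3 stood apart: its counts differed from those of replicates 1 and 2 by a chi-square of 42.8 and 42 per degree of freedom, against 2.69 to 3.16 for every other pair within a group. Results are therefore also given without it. That fit keeps only replicates 1 and 2 in rcMSC, which differed by 3.16 per degree of freedom. Its p-values thus rest on a small spread that may be technical. Levels are given in CPM, the usual unit of counts scaled to library size. All 10 mesenchymal markers searched were found, 5 higher and 5 lower in rcMSC, with summed levels of 60820 to 74510 CPM in rcMSC and 42430 to 42680 in rbMSC. Most of each mesenchymal sum came from collagen genes, so it does not speak for these markers as a set. Monocyte and macrophage markers were also present, at 552 to 566 CPM in rcMSC and 950.2 to 954.8 in rbMSC, with 8 of 13 lower in rcMSC and none at 0. Proliferation markers summed to 123.6 to 137.1 CPM in rcMSC and 302 to 307 in rbMSC, with 12 of 12 lower. Endothelial markers lay at 14.9 to 16.9 CPM in rcMSC and 13.4 to 15.2 in rbMSC. Of 9 lymphoid, neutrophil and erythroid markers, S100a8, Elane and Cd3d were among those at 0 counts in every library. The part of other cells or of cell division in the results below was not tested, and in bulk libraries fewer cells of a type and less RNA per cell cannot be told apart.

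The proteasome genes that changed were higher in rcMSC, by small amounts, and 6 of the 11 were genes of the beta ring. Of the 31 members with enough counts to test, 11 rose and 0 fell at an adjusted p under 0.05 in edgeR, over all genes. Over the 14836 genes tested, 22.6% were higher and 23.2% lower by the same rule. The 11 were Psma4, the beta subunits Psmb1, Psmb3, Psmb4, Psmb5, Psmb6 and Psmb7, the ATPases Psmc4 and Psmc6, the lid subunit Psmd11 and the chaperone Psmd5. Their log2 fold changes ran from 0.25 to 0.58, and the median over the 31 members was 0.15, against 0.02 over all genes. In 28 of the 31 the estimate was above 0, and the 3 below it, Psmd2, Psmd4 and Psmd12, lay between -0.04 and -0.02. Without rcMSC replicate 3, 21 members were higher and 1, Psmd2, lower, where 29.9% and 30.2% of all genes were called. With any other library left out, 4 to 7 members were higher (12.9% to 22.6%), against 16.8% to 17.9% of all genes, and 0 were lower. With the gene length trend removed, 8 were higher (25.8%) and 1, Psmd4, lower, where 23.2% and 22.1% of all genes were called. The plot of fold changes by place in the particle shows all 31.

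**Figure D1:**
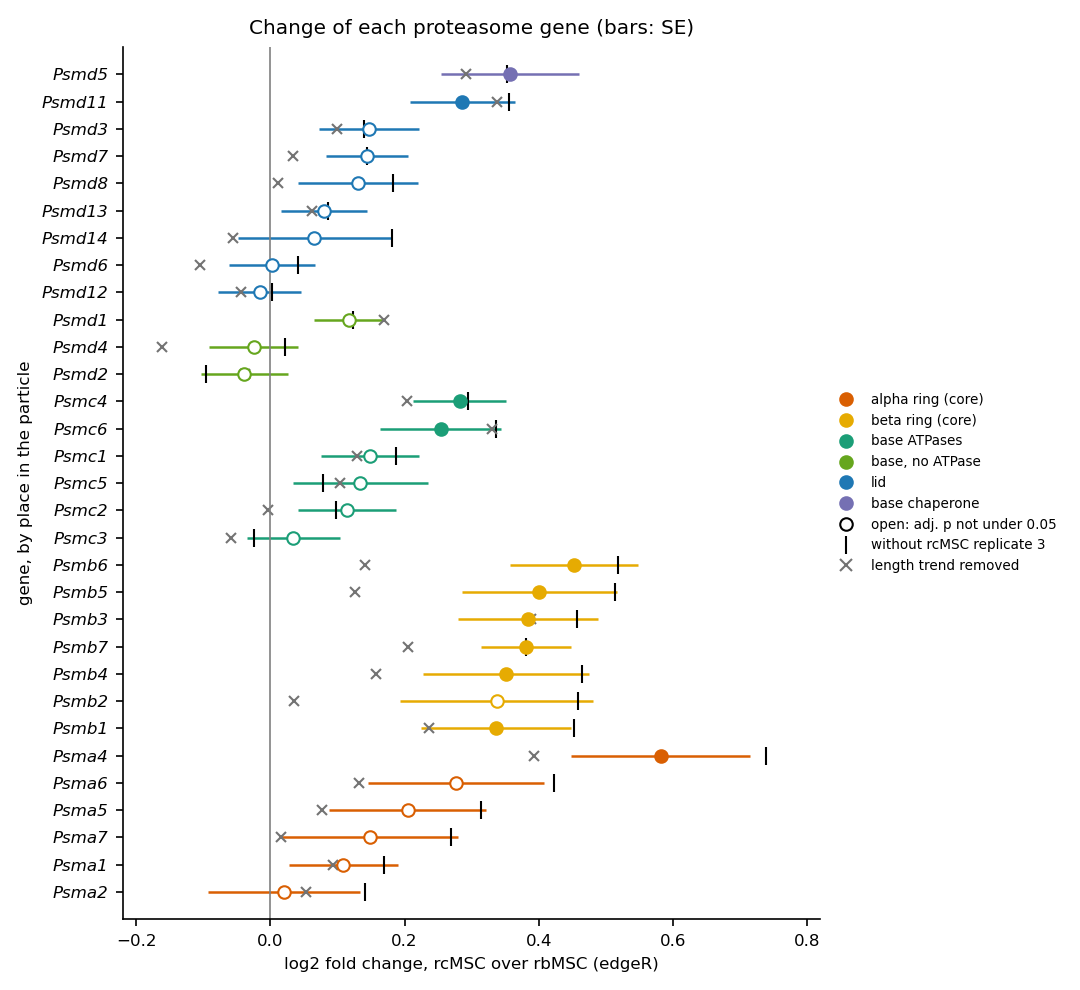
Log2 fold change of rcMSC over rbMSC for the 31 tested proteasome genes (points, edgeR estimate; bars, SE; filled points have an adjusted p under 0.05), with the estimate without rcMSC replicate 3 (vertical ticks) and with the gene length trend removed (crosses). The 7 beta ring genes lie between 0.34 and 0.45, and the base and lid genes at or below 0.29.

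In the alpha ring, which gates entry to the core, 1 of 6 tested members rose and 5 did not pass. Psma4 had 238, 253 and 169 CPM in rcMSC replicates 1 to 3 and 144, 151 and 146 CPM in rbMSC replicates 1 to 3. The groups did not overlap, and rcMSC replicate 3 was the lowest of its group. Its log2 fold change was 0.58 (SE 0.13, edgeR's adjusted p = 0.00796). Without rcMSC replicate 3, which leaves replicates 1 and 2 in rcMSC, it was 0.74 (edgeR's adjusted p = 5.71e-23). In mRatBN7.2 Psma4 (ENSRNOG00000013493) spans bases 55340386 to 55347890 of chromosome 8. Psma6 had 117, 108 and 79.9 CPM in rcMSC against 77.3, 88.8 and 86 in rbMSC, so that 2 rcMSC libraries were above all rbMSC libraries and the other lay among them. Its log2 fold change was 0.28 (edgeR's adjusted p = 0.119), and 0.42 (edgeR's adjusted p = 5.08e-10) without rcMSC replicate 3. The same order of libraries was seen in Psma5, with 26.6, 25.9 and 20.4 CPM against 18.9, 23.1 and 21.3. Psma5, Psma7, Psma1 and Psma2 had log2 fold changes of 0.20, 0.15, 0.11 and 0.02. Without rcMSC replicate 3, Psma1, Psma5 and Psma7 passed as well as Psma4 and Psma6 (edgeR's adjusted p = 0.0336, 0.00107 and 0.0268 for the first 3), and Psma2 did not (0.125). Psma8, an alpha subunit of the testis, did not pass the low-count filter: it had 2 counts in rbMSC replicate 2, 6 in rcMSC replicate 2 and 0 in the other libraries.

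The beta ring carries the protease sites, and 6 of its 7 members rose in rcMSC (85.7%, against 22.6% of all genes), with a median log2 fold change of 0.38. With the trend of fold change over gene length removed, as described further on, 2 of the 7 passed (28.6%, against 23.2%). Without rbMSC replicate 1, rbMSC replicate 2 or rcMSC replicate 1, 2 of the 7 passed as well, against 16.8%, 17.2% and 17.9% of all genes. Psmb5 (ENSRNOG00000013386, chromosome 15, 28072781 to 28077440), which holds the chymotrypsin-like site, had 21.2, 22.8 and 16.9 CPM in rcMSC and 14.9, 15.1 and 16.2 in rbMSC. The groups did not overlap, and the lowest rcMSC library, replicate 3, was just above the highest rbMSC library. Its log2 fold change was 0.40 (SE 0.12, edgeR's adjusted p = 0.0168). Psmb6 (ENSRNOG00000019551, chromosome 10, 55239241 to 55241586), with the caspase-like site, had 24.3, 22.8 and 20.4 CPM against 16.6, 17.5 and 15.4, a log2 fold change of 0.45 (SE 0.10, edgeR's adjusted p = 0.00332). Psmb7 (ENSRNOG00000011732, chromosome 3, 22354698 to 22417937), with the trypsin-like site, had 42.5, 43.9 and 43.2 CPM against 34.2, 31.7 and 33.6. All 3 rcMSC libraries of Psmb7 lay within a narrow range, replicate 3 included, and its log2 fold change was 0.38 (SE 0.07, edgeR's adjusted p = 0.00108), the same without that library.

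The other beta subunits hold no protease site. Psmb3 had 18.3, 17.8 and 15.3 CPM in rcMSC against 12.3, 12.9 and 14.2 in rbMSC, and Psmb1 had 57.3, 68.4 and 48.2 against 46.7, 44.2 and 46.9. Neither overlapped between groups, at log2 fold changes of 0.38 (edgeR's adjusted p = 0.0127) and 0.34 (edgeR's adjusted p = 0.0335). Psmb4, at 33, 33.8 and 25.5 CPM against 20.7, 26 and 25.5, passed at 0.35 (edgeR's adjusted p = 0.0415) although its groups overlapped, with rcMSC replicate 3 below rbMSC replicate 2. Psmb2 did not pass (9.47, 9.13 and 7.04 against 7.06, 7.05 and 6.22 CPM, log2 fold change 0.34, edgeR's adjusted p = 0.0788). Without rcMSC replicate 3 all 7 beta members passed, at log2 fold changes of 0.38 to 0.52. With 1 of the other libraries left out, Psmb6 and Psmb7 stayed past the threshold each time and the rest were lost at least once. Psmb1 was lost without rbMSC replicate 1, 2 or 3 (edgeR's adjusted p = 0.0847, 0.116 and 0.0817) or rcMSC replicate 1 or 2 (0.0677 and 0.109), and its estimate was 0.20 without rcMSC replicate 2. Psmb4 was lost without the same libraries (edgeR's adjusted p = 0.162, 0.0633, 0.0746, 0.125 and 0.134). On a scale of total counts alone, both missed the threshold too (0.0606 for Psmb1 and 0.0707 for Psmb4). Psmb5 was lost without replicate 1 or 2 of either group (edgeR's adjusted p = 0.068, 0.0667, 0.0558 and 0.0685), and Psmb3 without rbMSC replicate 1, rbMSC replicate 2 or rcMSC replicate 1 (0.0603, 0.0524 and 0.0517).

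**Figure D2:**
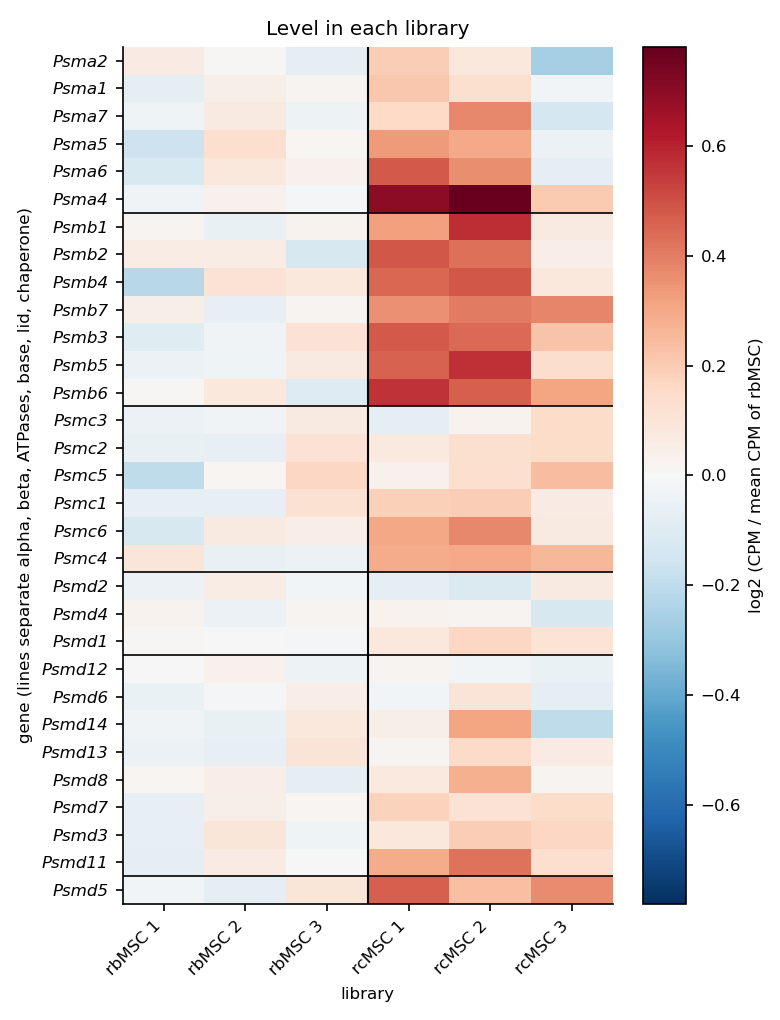
Level of the 31 tested proteasome genes in each library as the log2 of CPM over the mean CPM of the rbMSC libraries (rows, genes by place in the particle; columns, libraries; red, above the rbMSC mean; blue, below it). The beta ring genes are red in all rcMSC libraries and, except for Psmb7, paler in rcMSC replicate 3, while most lid and base genes are close to white throughout.

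The core genes were lowest of their group in rcMSC replicate 3 in 12 of 13 cases, Psmb7 being the exception with its lowest value in rcMSC replicate 1. Over all members this library was lowest of the rcMSC libraries in 21 of 31 (67.7%), against 41.7% of all genes tested. In rbMSC, replicate 1 was most often the lowest, in 7 of the 13 core genes. Over all members it was lowest of the rbMSC libraries in 15 of 31 (48.4%), against 33.2% of all genes tested.

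The 6 base ATPases, which unfold the substrate, had smaller changes, with a median log2 fold change of 0.14, and 2 rose. Psmc4 (ENSRNOG00000018994, chromosome 1, 83348592 to 83357494) had 43.4, 43.7 and 42.6 CPM in rcMSC and 38, 34.3 and 34.5 in rbMSC. The rcMSC libraries agreed closely and lay above every rbMSC library, at a log2 fold change of 0.28 (SE 0.07, edgeR's adjusted p = 0.00763). Psmc6 had 58.5, 61.4 and 49.8 CPM against 43.4, 49.8 and 49.1, where rcMSC replicate 3 equalled the highest rbMSC library to 3 digits. Its log2 fold change was 0.25 (edgeR's adjusted p = 0.0414), and its call was lost if any rbMSC library or rcMSC replicate 1 or 2 was left out (0.171, 0.0723, 0.0838, 0.115 and 0.147), and on a scale of total counts alone (0.0829). Psmc1, Psmc5, Psmc2 and Psmc3 had log2 fold changes of 0.15, 0.13, 0.11 and 0.03, and of these Psmc1 passed without rcMSC replicate 3 (0.19, edgeR's adjusted p = 0.00523). Psmc3 had 78, 83.8 and 91 CPM in rcMSC against 79.8, 80.6 and 86.4, with no separation of the groups.

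None of the 3 other base subunits passed. Psmd1, a large scaffold, had 183, 193 and 185 CPM in rcMSC against 174, 173 and 171, which did not overlap but differed by a log2 fold change of 0.12 (SE 0.05, edgeR's adjusted p = 0.0909, and 0.00839 without rcMSC replicate 3). Psmd2, the other scaffold, had 154, 150 and 170 CPM against 158, 169 and 160, with the groups interleaved at a log2 fold change of -0.04 (edgeR's adjusted p = 0.648). Psmd2 was called lower without rcMSC replicate 3, at -0.10 (edgeR's adjusted p = 0.0495). Psmd4, a receptor for ubiquitin chains, had 58.9, 58.6 and 53.1 CPM against 58.9, 56 and 58.7 (log2 fold change -0.03, edgeR's adjusted p = 0.781).

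Of the 8 lid subunits, Psmd11 rose and 7 did not pass, with a median log2 fold change of 0.11. Psmd11 (ENSRNOG00000005538, chromosome 10, 65433853 to 65479766), which bridges the lid and the core, had 88.8, 97.3 and 79.6 CPM in rcMSC and 69.3, 76.1 and 72.7 in rbMSC. The groups did not overlap, at a log2 fold change of 0.29 (SE 0.08, edgeR's adjusted p = 0.013). The call of Psmd11 was lost without rbMSC replicate 1, rbMSC replicate 3 or rcMSC replicate 2 (edgeR's adjusted p = 0.0701, 0.0535 and 0.0534). Psmd14, the deubiquitinase of the lid, had 104, 125 and 87.6 CPM against 98.7, 96.5 and 107 (log2 fold change 0.07, SE 0.11, edgeR's adjusted p = 0.666). The rcMSC libraries of Psmd14 spanned the whole range of the rbMSC libraries. Psmd7, its partner in the lid, had 63, 60.3 and 61.5 CPM against 53.3, 57.5 and 56.4, which did not overlap (log2 fold change 0.14, edgeR's adjusted p = 0.0783). The other 5, Psmd3, Psmd8, Psmd13, Psmd6 and Psmd12, had log2 fold changes of 0.15, 0.13, 0.08, 0.00 and -0.02. Without rcMSC replicate 3, Psmd7, Psmd8, Psmd11 and Psmd14 passed (edgeR's adjusted p = 0.0244, 0.0474, 4.14e-08 and 0.00858).

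The chaperone Psmd5 had 16.4, 13.9 and 15.3 CPM in rcMSC and 11.6, 11.2 and 12.6 in rbMSC. The groups did not overlap, at a log2 fold change of 0.36 (SE 0.10, edgeR's adjusted p = 0.0164). It lost its call without rbMSC replicate 1, rbMSC replicate 2 or rcMSC replicate 1 (edgeR's adjusted p = 0.06, 0.0697 and 0.0671).

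Set side by side, the core particle had 7 of 13 members higher and 0 lower, with a median log2 fold change of 0.34, and the regulatory particle 3 of 17 higher and 0 lower, with a median of 0.12. As shares these are 53.8% and 17.6%, against 22.6% of all genes. With the gene length trend removed, 3 of 13 core genes (23.1%) and 4 of 17 regulatory genes (23.5%) were higher, against 23.2% of all genes, and the contrast between the shares was gone. Without rcMSC replicate 3 they were 12 of 13 and 8 of 17, against 29.9% of all genes. All 3 rcMSC libraries lay above all 3 rbMSC libraries in 6 of 13 core genes and 4 of 17 regulatory genes, and below in none, where 28.3% and 28.8% of all genes lay above and below. With 1 of the other 5 libraries left out, 3 to 5 core genes and 1 or 2 regulatory genes passed, and 0 were lower. For all genes the share called higher was then 16.8%, 17.2% or 17.6% without rbMSC replicate 1, 2 or 3, and 17.9% or 17.7% without rcMSC replicate 1 or 2. The share called lower was 18.5%, 18.6% or 18.8% without an rbMSC library and 19.3% without either rcMSC library. With limma voom and quality weights 17 members were higher and 0 lower, where 29.5% of all genes were called in each direction, and with the replicate number as a block 9 were higher and 0 lower, where 20.5% and 21.9% were called. The calls of Psma4, Psmb6, Psmb7 and Psmc4 held whichever of the 6 libraries was left out. The difference between the particles was not tested.

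Gene length moved with these results. Core particle genes are short in the count table, with a median of 1377.5 bases, against 2256 in the regulatory particle and 2960 over all genes tested. Across all 14836 genes the log2 fold change fell with length (Spearman's rho -0.20, Pearson's r -0.12), and across the 31 members rho was -0.40 and r -0.42. Genes are not independent of each other, so these are descriptions. With a smooth length trend taken out of each library, 8 members were higher and 1 lower (Psmd4, -0.16, edgeR's adjusted p = 0.041), where 23.2% and 22.1% of all genes were called. The beta ring then had 2 of 7 members higher, Psmb7 at a log2 fold change of 0.20 (edgeR's adjusted p = 0.034) and Psmb3 at 0.39 (edgeR's adjusted p = 0.0103). Psmb5 and Psmb6 moved to 0.13 and 0.14 (edgeR's adjusted p = 0.283 and 0.232), and Psmb1 and Psmb4 to 0.24 and 0.16 (0.0661 and 0.245). Psma4 stayed past the threshold at 0.39 (edgeR's adjusted p = 0.0118), as did Psmc4, Psmc6, Psmd5 and Psmd11 (0.20, 0.33, 0.29 and 0.34), and Psmd1 passed at 0.17 (edgeR's adjusted p = 0.0195). On this scale the medians of the core and the regulatory particle were 0.13 and 0.03. The plot of change against length sets the members beside all other genes.

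**Figure D3:**
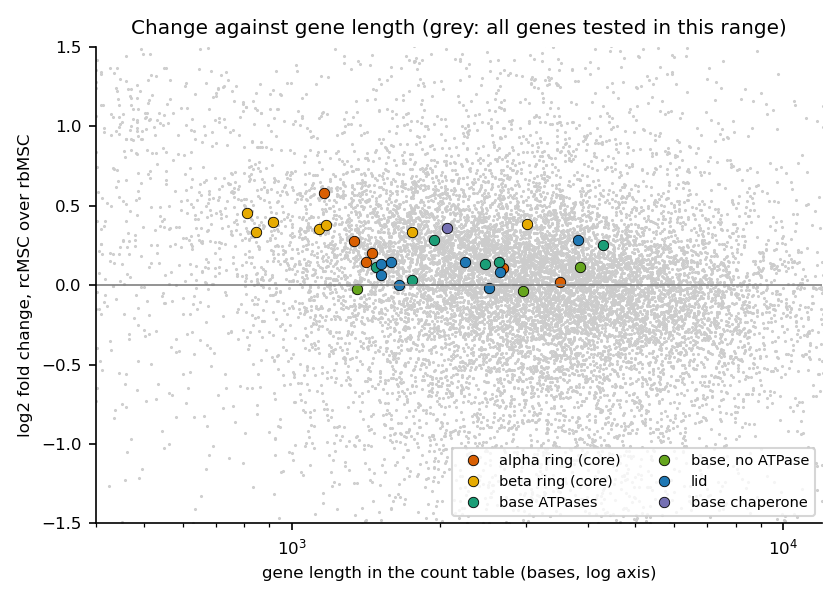
Log2 fold change of rcMSC over rbMSC against gene length in the count table (log axis; coloured points, the 31 proteasome genes by place in the particle; grey points, all other genes tested within the plotted range). Apart from Psmb1 and Psmb3, the 7 beta ring genes have 1171 bases or fewer, and Psmb3, with 3012 bases, has a log2 fold change of 0.38.

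Levels of different subunits were compared per length, as CPM per kilobase (kb) of gene length, although the assembled particle holds the subunits in fixed numbers. In rcMSC the alpha ring members ran from 6.81 ± 1.07 (Psma2) to 189 ± 38.2 CPM per kb (Psma4) (SD, n = 3), a ratio of 27.8. In rbMSC the same genes marked the ends, at 6.72 ± 0.34 and 126 ± 2.69. Psma6 was the next highest alpha gene, at 76 ± 14.6 CPM per kb in rcMSC. The beta ring was more even, from 5.69 ± 0.53 (Psmb3) to 36.9 ± 0.59 (Psmb7) in rcMSC and from 4.36 ± 0.32 to 28.3 ± 1.12 in rbMSC, a ratio of 6.5 in each group. The base ATPases spanned ratios of 4.16 in rcMSC and 4.47 in rbMSC, with Psmc3 highest (47.9 ± 3.7 CPM per kb in rcMSC) and Psmc5 lowest (11.5 ± 0.82). Of the lid, Psmd14 was highest (69.5 ± 12.3 in rcMSC) and Psmd3 lowest (15.9 ± 0.62). Psmd2, Psmd1 and Psmd4, the 3 other base subunits, lay close together at 53.6 ± 3.69, 48.4 ± 1.32 and 41.9 ± 2.42. Across the core the ratio between the highest and the lowest subunit was 33.2 in rcMSC, while the largest change of a member between groups was 0.58 on the log2 scale (Psma4). These ranks and ratios depend on the gene length in the count table. Psma2 and Psmb3 are the longest of their rings there, at 3517 and 3012 bases, against medians of 1456 and 1138. In CPM without length the lowest tested genes in rcMSC were Psma7 (13.2, with Psma2 at 23.9) and Psmb2 (8.55, with Psmb3 at 17.1).

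**Figure D4:**
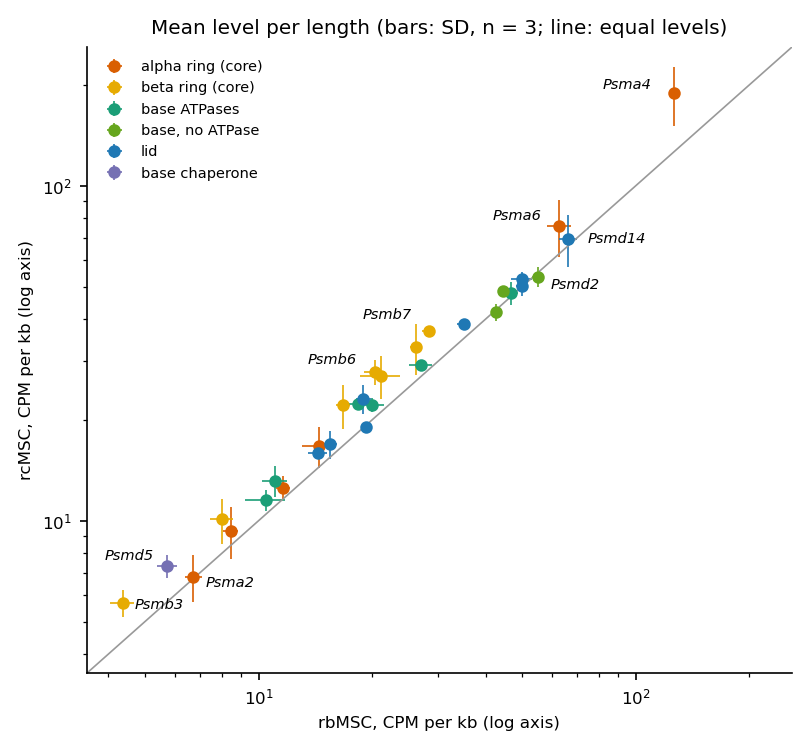
Mean level of each tested proteasome gene in rbMSC (x axis) and rcMSC (y axis) in CPM per kb on log axes, with SD bars over 3 libraries and a line of equal levels. Psma4 stands above the rest at 126 and 189 CPM per kb, and the beta ring genes lie above the line.

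Summed over genes, the alpha ring had 341, 346 and 244 CPM per kb in rcMSC and 221, 239 and 231 in rbMSC, and the beta ring 168, 176 and 144 against 123, 126 and 127. The base ATPases had 142, 148 and 148 against 129, 131 and 141, and the lid 283, 309 and 267 against 262, 269 and 278. The rcMSC sums of both rings and of the ATPases were above every rbMSC sum, and the lid sums overlapped. The ratio of core to regulatory sums was 0.82 ± 0.11 in rcMSC and 0.65 ± 0.02 in rbMSC (SD, n = 3), with 0.69 in rcMSC replicate 3 as the lowest rcMSC value and 0.67 as the highest rbMSC value. Psma4 made up a large part of it: without this gene the ratios were 0.49 ± 0.05 and 0.42 ± 0.01, and rcMSC replicate 3, at 0.432, then fell within the rbMSC range of 0.413 to 0.434. All members together took 0.193% ± 0.019 of the counts in rcMSC and 0.172% ± 0.0041 in rbMSC. The sums and ratios hold only genes of the naming rule. They leave out the regulatory subunits Sem1 (37.4 CPM per kb in rcMSC, 24.9 in rbMSC) and Adrm1 (36.7 and 34.8). Also left out is ENSRNOG00000007851 (33.7 and 28.2), a row without a symbol that carries a core complex term.

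**Figure D5:**
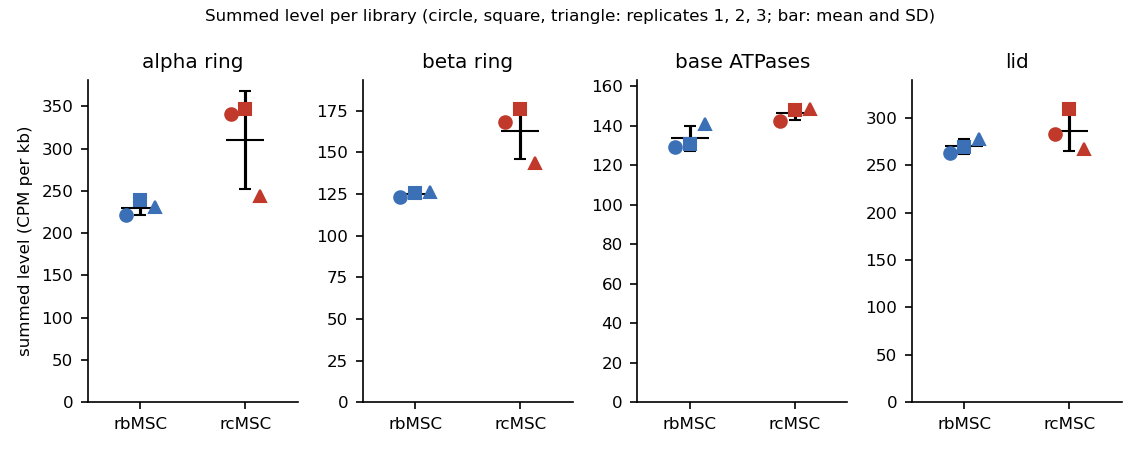
Summed level in CPM per kb of the alpha ring, beta ring, base ATPase and lid genes in each library (points; the bar is the mean with its SD, n = 3). In the alpha ring rcMSC replicate 3 (triangle, 244) lies near the rbMSC libraries (221 to 239) and away from the other rcMSC libraries (341 and 346).

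Where a gene has close copies in the genome, its reads can be split or dropped in the counting. By symbol, RefSeq (GRCr8) lists 37 further entries, mostly pseudogenes, named after 14 of the 32 members, and how alike their sequences are was not tested. Psmb3 had 10, Psma6 5, and Psma7, Psmb6 and Psmc4 3 each. Psma2, Psmb7, Psmc6 and Psmd8 had 2 each, and Psma5, Psmb4, Psmd1, Psmd12 and Psmd14 had 1. The levels of all 14 are uncertain in this respect. Of the 11 members that rose, 5 had none: Psma4, Psmb1, Psmb5, Psmd5 and Psmd11. A further 2 rows of the table carry a core complex term but no symbol and stood outside the rule. Of these ENSRNOG00000007851 on chromosome 6 had 92.8, 84.2 and 74.1 CPM in rcMSC against 67.6, 71.8 and 70.7 in rbMSC, with no overlap (log2 fold change 0.26, edgeR's adjusted p = 0.0245), and ENSRNOG00000011827 stayed below 1 CPM in every library.

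Other genes of the pathway, 48 of 50 listed, had 16 higher and 5 lower in rcMSC (33.3% higher, against 22.6% of all genes), with a median log2 fold change of 0.10. Of 6 assembly factors, 4 rose and 0 fell. Pomp, which guides the beta ring into place, rose from 13.4 ± 0.32 to 20 ± 3.79 CPM (log2 fold change 0.58, edgeR's adjusted p = 0.00525). Psmg3, Psmg4 and Psmg2, chaperones of the alpha ring, rose by 1.08, 1.02 and 0.46 on the log2 scale (edgeR's adjusted p = 0.00456, 0.014 and 0.0207). The first 2 had few counts, 33 to 36 for Psmg3 and 28 to 44 for Psmg4 in the rbMSC libraries. In CPM, Psmg3 had 3.2 ± 0.79 in rcMSC against 1.52 ± 0.19, and Psmg4 3.26 ± 0.97 against 1.61 ± 0.44. Psmg2 lost its call without replicate 1 or 2 of either group (edgeR's adjusted p = 0.0812, 0.0621, 0.0601 and 0.0553). Psmg4 lost its call without rbMSC replicate 3 or rcMSC replicate 2 (0.064 and 0.0593), and with the length trend removed (0.64, 0.0756). Psmg1 (0.46, edgeR's adjusted p = 0.0776) and Ecpas (0.11, 0.142) did not pass, but Ecpas passed with the length trend removed (0.26, 0.00129).

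Of the caps other than the regulatory particle, Psme1 and Psme2, which form a ring on the core that is induced by interferon, rose by 0.49 and 0.35 on the log2 scale (edgeR's adjusted p = 0.0135 and 0.0172). Psme2 lost its call without rbMSC replicate 1, rbMSC replicate 2 or rcMSC replicate 2 (0.0604, 0.0541 and 0.0678), and with the length trend removed (0.22, 0.0893). Psme3, their nuclear relative, fell by 0.31 on the log2 scale (edgeR's adjusted p = 0.00123), or by 0.17 with the length trend removed. Psme4 (log2 fold change -0.13, edgeR's adjusted p = 0.0737) and the inhibitor Psmf1 (0.03, 0.915) did not pass, though Psme4 was called lower without rcMSC replicate 3 (edgeR's adjusted p = 0.0109). The immunoproteasome subunits Psmb8, Psmb9 and Psmb10 had 2.19 ± 0.28, 1.23 ± 0.05 and 6.12 ± 0.96 CPM in rcMSC and 2.77 ± 0.36, 1.11 ± 0.16 and 5.09 ± 0.47 in rbMSC. None of the 3 passed (log2 fold changes -0.33, 0.14 and 0.27, edgeR's adjusted p = 0.199, 0.68 and 0.197).

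Among the lid and base subunits outside the naming rule, Sem1, the smallest lid subunit, rose by a log2 fold change of 0.59 (edgeR's adjusted p = 0.00154), or by 0.26 with the length trend removed. Adrm1, a ubiquitin receptor, did not pass (0.08, edgeR's adjusted p = 0.339). The transcription factor Nfe2l1 did not pass, at 783 ± 50.3 CPM in rcMSC against 741 ± 19.6 (log2 fold change 0.08, edgeR's adjusted p = 0.314), but was called higher with the length trend removed (0.18, edgeR's adjusted p = 0.021). Its relative Nfe2l2, the main factor of the oxidative stress response, had 254, 257 and 214 CPM in rcMSC against 137, 130 and 144 in rbMSC. These groups were well apart, at a log2 fold change of 0.82 (SE 0.08, edgeR's adjusted p = 1.74e-05). Ddi2 and Ngly1, which process Nfe2l1, and Keap1, which restrains Nfe2l2, did not pass (log2 fold changes -0.08, -0.06 and 0.11).

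Of 11 shuttle factors and deubiquitinases, which bring substrates to the proteasome or remove ubiquitin there, 2 rose and 2 fell. This is 18.2% in each direction, below the 22.6% and 23.2% of all genes. Among those that rose was the carrier Rad23b (0.69, edgeR's adjusted p = 1.48e-05). Ubqln2 and Zfand5 were called lower, at -0.34 and -0.31 on the log2 scale, and neither passed without rbMSC replicate 2 (edgeR's adjusted p = 0.0526 and 0.0772). Of 5 ubiquitin and E1 genes, Rps27a, which codes for ubiquitin joined to a ribosomal protein, rose by 1.27 (edgeR's adjusted p = 0.0039) and Uba1, the main ubiquitin-activating enzyme, fell by 0.28 on the log2 scale (edgeR's adjusted p = 0.00231). The polyubiquitin gene Ubb had 554 ± 90.3 CPM against 460 ± 14.5 and did not pass (edgeR's adjusted p = 0.0658), but passed without rcMSC replicate 3 (3.1e-15). Of 11 genes for the Vcp unfoldase and its partners in the cytosol and the endoplasmic reticulum, 5 rose (45.5%) and 1, Syvn1, fell. Of all genes, 22.6% rose and 23.2% fell. Ubxn1, Sel1l and Faf2 had log2 fold changes of 0.60, 0.28 and 0.27. The other 2 that rose, Ufd1 and Derl1 (0.23 each), both lost their call without rbMSC replicate 1 (edgeR's adjusted p = 0.0645 and 0.0586), rbMSC replicate 2 (0.0647 and 0.0548) or rcMSC replicate 1 (0.0643 and 0.0621). That left 3 of 11, where 16.8%, 17.2% and 17.9% of all genes were called higher in these fits. Ufd1 also missed the threshold with the length trend removed (0.0597). Syvn1 lost its call without rbMSC replicate 1, rbMSC replicate 2 or rcMSC replicate 2 (edgeR's adjusted p = 0.0554, 0.0616 and 0.0731). Vcp itself did not pass (-0.09, edgeR's adjusted p = 0.204), and was called lower without rcMSC replicate 3 (0.0489).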

How the data were processed

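Per the labels' protocols, paired reads of total RNA were trimmed by the authors (Trim Galore 0.6.7, Trimmomatic 0.39). STAR 2.7.9a served for mapping to mRatBN7.2, and featureCounts 2.0.1 for the counts per gene. The submitters' processing notes also name DESeq2 1.20.0. Neither the labels nor the table name the strand setting, the handling of multi-mapping reads or the annotation release. The deposited values are raw counts, 1 column per library, with a gene length column.

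Libraries were grouped by title. edgeR 4.0.16 (R 4.3.3; quasi-likelihood F test, TMM scaling, filterByExpr, robust dispersions) was fitted on the whole table, and p-values were adjusted by Benjamini-Hochberg over the 14836 genes kept, with a threshold of 0.05. SE was taken as the size of the log2 fold change over the root of its F statistic. CPM is scaled by TMM. Members were counted by role and set beside the same share over all genes, with no test over the members. The edgeR procedure was also run on simulated counts, with the same dispersion for all genes and no library that stood apart. That run does not bear on how rcMSC replicate 3 affects the calls. Total counts ran from 21340290 to 26928079 per library.

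Every member is named. Values per library are given for the catalytic subunits, for the called member that changed most in each role (the smallest p where none was called) and for others chosen after their values were seen. Of the other pathway lists, up to 3 called members each were named by size of change (the smallest p where none was called), and the rest after their values were seen. Members and lists were chosen with earlier results of these data known. Alternatives were other scalings (RLE, upper quartile, total counts), other low-count filters (1 count in all, or at least 10 counts in every library), DESeq2 1.42.0, limma 3.58.1 voom with quality weights, no robust estimation, a replicate block, a lowess length trend removed and each library left out. Promoters came from RefSeq (GRCr8). A few genes of the marker and pathway lists are not reported here, though the counts over these lists include them.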

Additional observations from a re-analysis of the deposited data

How the results depend on the processing

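The count of proteasome genes higher in rcMSC was 11 with edgeR (35.5%, against 22.6% of all genes) and 17 with limma voom with quality weights (54.8%, against 29.5%). It was 8 with the length trend removed (25.8%, against 23.2%) and 8 with total counts alone. Without rcMSC replicate 3 it was 21 (67.7%, against 29.9%). With any other library left out it was 4 to 7 (12.9% to 22.6%, against 16.8% to 17.9%). The count of lower genes was 0, 1 with the length trend removed and 0 to 1 with 1 library left out. For the core particle the higher count of 7 became 3 with the length trend removed and 3 to 12 with 1 library left out. For the regulatory particle the higher count of 3 became 4 with the length trend removed, 6 with limma voom and 1 to 8 with 1 library left out, the lower count of 0 became 1 with the length trend removed and 0 to 1 with 1 library left out, and the median of 0.12 moved to 0.033 with the length trend removed. The other pathway genes that were lower numbered 5, or 2 to 7 with 1 library left out. The ratio of core to regulatory sums, 0.82 in rcMSC and 0.65 in rbMSC per length, was 0.47 and 0.39 in CPM without length, and 0.49 and 0.42 without Psma4, a choice made after seeing the data. The cause of these shifts was not tested. Psma4, Psmb7 and Psmc4 passed in all 16 alternatives.

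Some members near 0 changed sign. Psmd6 was at -0.00031 with RLE, -0.0054 with total counts, -0.0022 with the strict count filter, -0.00034 with DESeq2 and -0.10 without the length trend. It was at -0.023, -0.0024 and -0.045 without rbMSC replicate 1, rbMSC replicate 2 and rcMSC replicate 2. Without the length trend Psmc2, Psmc3 and Psmd14 were at -0.0043, -0.058 and -0.057. With limma voom Psmc3, Psmd4 and Psmd12 were at -0.014, 0.0095 and 1.5e-05. Psma2 was at -0.019, -0.075 and -0.0085 without rbMSC replicate 3, rcMSC replicate 1 and rcMSC replicate 2. Without rcMSC replicate 3 Psmc3, Psmd4 and Psmd12 were at -0.025, 0.022 and 0.0023. Psmd12 was at 0.0012 without rbMSC replicate 2, and without rcMSC replicate 2 Psmd2 and Psmd14 were at 0.00070 and -0.070. None of these values passed. With 1 library left out the other end of the range was 0.14 for Psma2, 0.089 for Psmc3, -0.049 for Psmd4, -0.036 for Psmd12, 0.18 for Psmd14 (edgeR's adjusted p = 0.00858) and 0.040 for Psmd6.

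No sign was seen that the replicate numbers pair the libraries. Deviations of same-numbered libraries from their group means correlated at -0.0678, 0.00937 and -0.0821, and those of differently numbered libraries at -0.0886 to 0.104. With 3 libraries per group this check cannot exclude a shared animal or batch. With the number as a replicate block, 9 members were higher and 0 lower, and Psmb4 and Psmc6 did not pass (edgeR's adjusted p = 0.0506 and 0.0548).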
